A study of Mus musculus with 6 samples.

Results

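A set of 10 transcripts of lymphocytes and antigen-presenting cells were followed in RNA from purified mouse erythrocytes. They were 3 genes of T and NK cells (Gzma, Tcf7 and Lck), 4 of B cells (Ighm, Igkc, Cd79a and Cd79b) and 3 of class II antigen presentation (H2-Aa, H2-Ab1 and Cd74). All 10 were found by symbol among the 27179 genes of each count file. They were selected on the counts and the mutant to wild-type fold changes of these same libraries, so their differences by genotype are given as a description. Their p-values are not printed, and where the text says whether a fit called one of them, that call is part of what chose them and supports nothing. Intervals beside their ratios show counting error only.

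The erythrocytes came from 3 Nxf1 mutant males, heterozygous for a missense allele (Nxf1+/C587R), and from 3 wild-type littermates (Nxf1+/+), all on the BALB/c strain background. The Nxf1 protein carries most messenger RNA out of the nucleus. Each library came from 1 animal, the ages were not given, and each of 3 labelled batches held 1 mutant and 1 wild-type library, numbered here by batch. Blood was drawn from the heart, red cells were pelleted through Ficoll, and the suspensions were checked by flow cytometry for platelets, CD45+ cells and nucleated cells before lysis.

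Mature mammalian red cells have no nucleus and are not known to present antigen on class II molecules or to rearrange antigen receptor genes. Lymphocytes and monocytes stay at the interface of a Ficoll gradient while red cells and most granulocytes pass into the pellet, so a red cell pellet can carry residual white cells. T cells and NK cells kill targets with granzymes, B cells carry membrane immunoglobulin coupled to the CD79 signalling pair, and B cells, dendritic cells and macrophages load peptides on class II molecules. In a bulk RNA sample, fewer cells of a type and less RNA per cell cannot be told apart.

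Total counts were 14636739 to 15790336 per library, of which 1627997 to 1877571 (10.7% to 11.9%) were not globin. Erythroid transcripts were abundant in every library: the list of 14 matched erythroid genes held 426577 to 443602 counts in mutant libraries and 468013 to 523443 in wild-type libraries. Nxf1 itself had 9, 7 and 11 counts in mutant libraries and 15, 10 and 20 in wild-type libraries, too few to check the genotype labels, and counts per gene do not show the allele. A list of 14 pan-leukocyte genes, which lymphocytes share with other white cells, held 673, 717 and 1255 counts in mutant libraries and 1317, 1254 and 1347 in wild-type libraries, and 15 neutrophil genes held 1281, 1379 and 2582 against 2733, 2165 and 2156. Hepatocyte transcripts also differed by genotype, with 1705, 3787 and 2127 counts over 20 genes in mutant libraries and 106, 20 and 14 in wild-type libraries. Exocrine pancreas transcripts (16 genes) had 1, 1 and 3 counts in mutant libraries and 430, 1 and 2 in wild-type libraries. The part of these transcripts in the results below was not tested.

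The 10 transcripts together were rare. They summed to 275, 324 and 181 counts in mutant libraries and 437, 359 and 865 in wild-type libraries, or 18.1, 21.3 and 12.4 CPM (counts scaled to a common total) against 28.2, 24.4 and 54.8 before any scaling factor. The 95% Wilson intervals ran from 10.7 CPM (low end, mutant 3) to 58.6 (high end, wild type 3) and cover counting error only. For each of the 10 genes, wild-type library 3 held the most counts. Levels below are CPM scaled further with TMM factors, which were 0.720, 0.780 and 1.06 in mutant libraries and 1.23, 1.11 and 1.23 in wild-type libraries. A count of 3, the limit that a count of 0 allows, corresponds to 0.190 to 0.205 CPM of the total. With TMM scaling it corresponds to 0.275, 0.252 and 0.194 CPM in mutant libraries 1, 2 and 3.

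**Figure D1:**
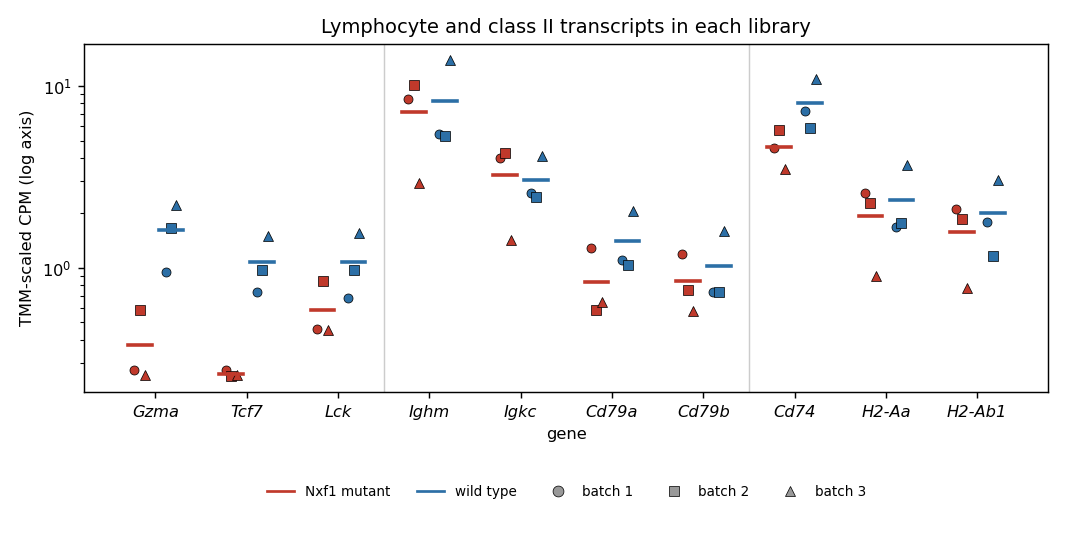
TMM-scaled CPM (log axis) of each of the 10 genes in the 3 mutant libraries (red) and the 3 wild-type libraries (blue), with bars at the group means and marker shapes for batches 1 to 3. The groups do not overlap for Gzma, Tcf7 and Cd74, and wild-type library 3 is the highest for 9 genes while mutant library 3 is the lowest for 8.

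Gzma and Tcf7 were the transcripts with the largest difference by genotype, and both were lower in the mutants in all 3 batches. Gzma encodes granzyme A, a serine protease in the granules of NK cells and cytotoxic T cells (Entrez gene 14938, mm10 chromosome 13, 113093824 to 113100981). It had 3, 7 and 4 counts in mutant libraries and 18, 27 and 43 in wild-type libraries, and every mutant value was below every wild-type value. It averaged 0.374 ± 0.186 CPM in mutant libraries and 1.60 ± 0.636 CPM in wild-type libraries (SD, n = 3 each), a log2 fold change of −2.10 (SE 0.45). Within batches 1, 2 and 3 the mutant to wild-type ratio was 0.291 (95% exact counting interval 0.0548 to 0.995), 0.357 (0.131 to 0.841) and 0.117 (0.0304 to 0.321).

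Tcf7 encodes TCF-1, a transcription factor of thymocytes, naive and memory T cells and innate lymphoid cells (Entrez gene 21414, chromosome 11, 52246527 to 52283383). Its counts were 3, 3 and 4 in mutant libraries and 14, 16 and 29 in wild-type libraries, again without overlap. It averaged 0.262 ± 0.0117 CPM in mutant libraries and 1.07 ± 0.388 CPM in wild-type libraries (SD, n = 3 each), a log2 fold change of −2.00 (SE 0.47). The mutant counts of 3 to 4 lie at the limit of detection, so their small SD is no measure of precision. The batch ratios were 0.374 (95% exact counting interval 0.0688 to 1.34), 0.258 (0.0482 to 0.903) and 0.173 (0.0441 to 0.492).

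Lck, the kinase that starts T cell receptor signalling (Entrez gene 16818, chromosome 4, 129548344 to 129573641), had 5, 10 and 7 counts in mutant libraries and 13, 16 and 30 in wild-type libraries. Its CPM overlapped between the groups, at 0.583 ± 0.223 in mutant libraries and 1.07 ± 0.439 in wild-type libraries (SD, n = 3 each). The log2 fold change was −0.88 (SE 0.43), but −0.50 without wild-type library 3 and −0.24 without batch 3. The batch ratios were 0.671 (95% exact counting interval 0.187 to 2.00), 0.861 (0.349 to 2.02) and 0.292 (0.108 to 0.679).

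Gzma and Tcf7 were 2 of 10 genes called lower at an edgeR adjusted p under 0.05, where 1.06% of all 2823 genes tested were called lower, 5.99% higher and 7.05% in either direction. Since these calls entered the choice of the genes, nothing is read from that share. Gzma, Tcf7 and Lck met the low-count filter in 0 mutant libraries and in all 3 wild-type libraries, so they could enter the test only through wild type. Cd79b met it in 1 mutant library and Cd79a in 2, and the other 5 genes met it in all 6 libraries. Leaving out mutant 3 or batch 3 ended both calls, with log2 fold changes of −1.78 and −1.46 for Gzma and of −1.91 and −1.58 for Tcf7. Leaving out mutant 2, wild type 3 or batch 2 ended the call of Tcf7, at −1.94, −1.67 and −2.00. DESeq2 called 0 of the 10, with −2.05 for Gzma and −1.96 for Tcf7, and called 1 (Gzma) when run on the genes that edgeR tested.

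With TMM the B cell transcripts did not separate the genotypes, and with total counts only Cd79a did. Ighm, the constant region of the IgM heavy chain (Entrez gene 16019, chromosome 12, 113418826 to 113422730), had 92, 120 and 45 counts in mutant libraries and 103, 87 and 270 in wild-type libraries. Mutant library 3 was the lowest and wild-type library 3 the highest, and the other 4 libraries lay between them. Ighm averaged 7.14 ± 3.76 CPM in mutant libraries and 8.21 ± 4.94 CPM in wild-type libraries (SD, n = 3 each), a log2 fold change of −0.22 (SE 0.63). With TMM the batches lay on opposite sides of 1. The mutant to wild-type ratio was 1.56 in batch 1 (95% exact counting interval 1.16 to 2.08) and 1.90 in batch 2 (1.43 to 2.53), and 0.209 in batch 3 (0.149 to 0.287). With total counts the ratios were 0.912, 1.33 and 0.180, so the side of batch 1 depended on the scaling.

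Igkc, the kappa light chain constant region (Entrez gene 16071, chromosome 6, 70726435 to 70726754), had 44, 51 and 22 counts in mutant libraries and 49, 40 and 80 in wild-type libraries. It averaged 3.25 ± 1.59 CPM in mutant libraries and 3.05 ± 0.935 CPM in wild-type libraries (SD, n = 3 each), with a log2 fold change of 0.06 (SE 0.37) and of −0.50 with total counts. Its batch ratios were 1.57, 1.76 and 0.345 with TMM and 0.917, 1.23 and 0.297 with total counts, ordered like those of Ighm. The count ratio of Igkc to Ighm, which does not depend on scaling, was 0.478, 0.425 and 0.489 in mutant libraries and 0.476, 0.460 and 0.296 in wild-type libraries. It was thus lowest in wild-type library 3, the library with the most Ighm. The deposited counts do not separate the membrane from the secreted form of IgM.

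Cd79a and Cd79b encode Igα and Igβ, the signalling chains that pair with membrane immunoglobulin in the B cell receptor. Cd79a (Entrez gene 12518, chromosome 7, 24897497 to 24901858) had 14, 7 and 10 counts in mutant libraries and 21, 17 and 40 in wild-type libraries, with a log2 fold change of −0.78 (SE 0.39). Cd79b (Entrez gene 15985, chromosome 11, 106311341 to 106314562) had 13, 9 and 9 counts in mutant libraries and 14, 12 and 31 in wild-type libraries, with a log2 fold change of −0.32 (SE 0.42). With TMM their CPM overlapped between the groups, at 0.839 ± 0.385 against 1.40 ± 0.573 for Cd79a and 0.843 ± 0.314 against 1.02 ± 0.499 for Cd79b (SD, n = 3 each, mutant against wild type). With total counts every mutant value of Cd79a was below every wild-type value, as for 31.5% of all genes tested. The count ratio of Cd79b to Cd79a was 0.929, 1.29 and 0.900 in mutant libraries and 0.667, 0.706 and 0.775 in wild-type libraries, without overlap, on at most 14 counts of either gene in a mutant library. Without batch 3, Cd79a had a log2 fold change of −0.13 and Cd79b of 0.48.

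The class II chains followed the same pattern over libraries as Ighm. H2-Aa encodes the alpha chain of the I-A molecule (Entrez gene 14960, chromosome 17, 34282744 to 34287823), and it had 28, 27 and 14 counts in mutant libraries and 32, 29 and 71 in wild-type libraries. H2-Ab1 encodes the I-A beta chain (Entrez gene 14961, chromosome 17, 34263227 to 34269418), and it had 23, 22 and 12 counts in mutant libraries and 34, 19 and 59 in wild-type libraries. For both genes the mutant library of batch 3 was the lowest of the 6 and the wild-type library of batch 3 the highest.

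H2-Aa averaged 1.91 ± 0.886 CPM in mutant libraries and 2.37 ± 1.12 CPM in wild-type libraries, and H2-Ab1 1.58 ± 0.707 against 1.99 ± 0.958 (SD, n = 3 each). Their log2 fold changes were −0.35 (SE 0.40) and −0.39 (SE 0.41), and turned to 0.57 and 0.49 without batch 3. In batches 1, 2 and 3 the mutant to wild-type ratios were 1.53, 1.28 and 0.247 for H2-Aa and 1.18, 1.60 and 0.255 for H2-Ab1. With total counts they were 0.894, 0.898 and 0.213 for H2-Aa and 0.691, 1.12 and 0.219 for H2-Ab1. The H2-Ab1 to H2-Aa count ratio was 0.821, 0.815 and 0.857 in mutant libraries and 1.06, 0.655 and 0.831 in wild-type libraries. BALB/c mice carry the d haplotype of the H2 locus and the mm10 reference is the C57BL/6J genome with the b haplotype. Reads of polymorphic class II exons may therefore align less well in libraries of both genotypes, and levels of single class II genes are uncertain.

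Class II genes share a promoter module, the S, X and Y boxes, through which the transactivator CIITA acts. Promoters of the I-A and I-E chain genes H2-Aa, H2-Ab1, H2-Eb1 and H2-Ea were looked up in the RefSeq table (GRCm38.p6). Other class II chain genes were not looked up. The promoters of H2-Aa and H2-Eb1 had an entry and are shown. Each is the 150 bases before the annotated start, 5′ to 3′ on the gene's strand, with the Y box core CTGATTGG and the X box core AGCAACNG in capitals. H2-Aa lies at chr17:34287824-34287973 on the minus strand and H2-Eb1 at chr17:34305717-34305866 on the plus strand.
H2-Aa: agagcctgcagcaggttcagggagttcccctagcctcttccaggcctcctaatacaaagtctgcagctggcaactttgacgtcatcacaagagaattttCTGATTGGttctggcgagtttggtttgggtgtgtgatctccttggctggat
H2-Eb1: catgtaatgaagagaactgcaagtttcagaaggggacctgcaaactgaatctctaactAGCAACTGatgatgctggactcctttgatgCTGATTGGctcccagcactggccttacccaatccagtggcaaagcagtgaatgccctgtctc
The Y box core began 51 bases before the start in H2-Aa and 62 bases before it in H2-Eb1, and the X box core began 92 bases before the start in H2-Eb1. Only exact matches were searched, so H2-Aa may hold a variant X box that is not marked. Searched on both strands of the 250 bases before each start, CTGATTGG was in 3.83% of 32851 RefSeq promoters, AGCAACNG in 4.14% and both in 0.170%. The shorter core ATTGG, which CTGATTGG contains, was in 33.8% of them. The promoters of Gzma, Tcf7, Lck and Cd79a held none of these letters in that window, and Ighm, Igkc, Cd79b, Cd74, H2-Ab1 and H2-Ea had no entry in the table. A match is a run of letters, and binding was not measured.

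Cd74, the invariant chain that escorts class II molecules to the endosome (Entrez gene 16149, chromosome 18, 60803849 to 60812652), was the class II transcript whose values did not overlap between the genotypes. It had 50, 68 and 54 counts in mutant libraries and 139, 96 and 212 in wild-type libraries. It averaged 4.59 ± 1.12 CPM in mutant libraries and 8.03 ± 2.61 CPM in wild-type libraries (SD, n = 3 each), and the highest mutant, at 5.72 CPM, was just below the lowest wild type, at 5.86. The batch ratios were 0.627 (95% exact counting interval 0.445 to 0.872), 0.976 (0.705 to 1.35) and 0.319 (0.232 to 0.432) with TMM. With total counts they were 0.367, 0.683 and 0.275, so how far batch 2 lay below 1 depended on the scaling. The log2 fold change of −0.82 (SE 0.25) was not called by edgeR, and was called with batch as a term (log2 −0.79), where 2.13% of all genes were called lower, and with total counts (−1.34), where 8.68% were. It was −0.52 without wild-type library 3 and −0.27 without batch 3.

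The count ratio of Cd74 to H2-Aa plus H2-Ab1 was 0.980, 1.39 and 2.08 in mutant libraries and 2.11, 2.00 and 1.63 in wild-type libraries. Mutant libraries 1 and 2 were below the other 4 libraries, and mutant library 3 lay within the wild-type range.

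Over the 10 genes, 9 log2 fold changes were below 0. The T and NK genes ran from −2.10 to −0.88, the class II genes from −0.82 to −0.35 and the B cell genes from −0.78 to 0.06. Every mutant CPM was below every wild-type CPM for 3 of 10 genes (Gzma, Tcf7 and Cd74), against 11.1% of all genes tested. With total counts it was 6 of 10, adding Lck, Cd79a and H2-Aa, against 31.5%. Over all genes tested the median was −0.06 with TMM and −0.53 with total counts, and 84.9% of called genes were higher with TMM against 31.9% with total counts. With total counts all 10 log2 fold changes were below 0, from −2.59 for Gzma to −0.50 for Igkc, whose value was close to that of the median gene.

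**Figure D2:**
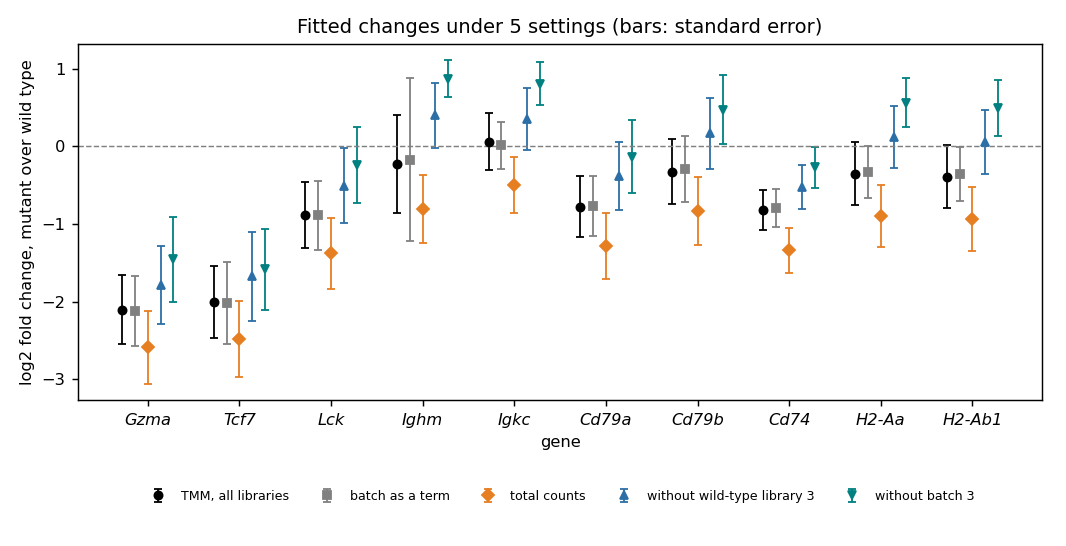
Fitted log2 fold changes, mutant over wild type, of the 10 genes (horizontal axis) with standard errors as bars, under 5 settings: TMM with all libraries, batch as a term, total counts, without wild-type library 3 and without batch 3. Gzma and Tcf7 stay below −1 under every setting shown, while Ighm, Igkc, Cd79b, H2-Aa and H2-Ab1 are above 0 without batch 3.

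Much of the spread lay between the mutant and the wild-type library of batch 3. With TMM, wild-type library 3 had the highest CPM for 9 of the 10 genes and mutant library 3 the lowest for 8. In batch 3 all 10 genes were lower in the mutant, and in batches 1 and 2 only 4 and 5 of them were, with TMM scaling. With total counts the numbers were 10 in batch 1, 7 in batch 2 and 10 in batch 3. Gzma, Tcf7, Lck and Cd74 were lower in the mutant in all 3 batches, Cd79a in 2, and Ighm, Igkc, Cd79b, H2-Aa and H2-Ab1 in 1. Wild-type library 3 exceeded the mean of wild-type libraries 1 and 2 by a factor of 2.60 for Ighm, the largest of the 10, and of 1.64 for Igkc, the smallest.

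Differences between batches that are shared by the genotypes were not detectable for these genes. A test of the batch term called 11 of 2823 genes (0.390%; edgeR adjusted p under 0.05) and 0 of the 10, whose unadjusted p ran from 0.148 for Gzma to 0.979 for Ighm. None of the 10 had an unadjusted p under 0.05 in this test, and the same held under the 5 other filters and scalings tried. This test asks whether both libraries of a batch deviate alike. In batch 3 the mutant and wild-type libraries deviated in opposite directions for Ighm, which the batch term does not capture. With 1 library of either genotype per batch, an effect of genotype that differs by batch and the spread between animals cannot be told apart.

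The sums below add up the counts already given and are no further evidence for them. The T and NK sum was 11, 20 and 15 counts in mutant libraries and 45, 59 and 102 in wild-type libraries, or 1.01, 1.68 and 0.968 CPM against 2.36, 3.60 and 5.26. As a share of total counts the mutant libraries held 0.725 (95% Wilson interval 0.405 to 1.30), 1.31 (0.849 to 2.03) and 1.02 (0.621 to 1.69) CPM, and the lowest wild-type library held 2.90 (2.17 to 3.89). The mutant to wild-type log2 ratio of the mean CPM was −1.62, with −1.23, −1.10 and −2.44 in batches 1, 2 and 3.

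The B sum was 163, 187 and 86 counts in mutant libraries and 187, 156 and 421 in wild-type libraries. Its log2 ratio was −0.18, with 0.60, 0.72 and −1.97 in the batches, whose SD of 1.52 exceeds the ratio itself. The class II sum was 101, 117 and 80 counts in mutant libraries and 205, 144 and 342 in wild-type libraries, with a log2 ratio of −0.62 and batch values of −0.22, 0.16 and −1.77. With TMM, of these sums only that of the T and NK genes had the same sign in all 3 batches. With total counts the class II sum did as well, with ratios of 0.503, 0.784 and 0.252. Its groups then did not overlap, at 6.66, 7.67 and 5.47 CPM in mutant libraries and 13.2, 9.79 and 21.7 CPM in wild-type libraries. The same held for 31.5% of all genes tested.

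**Figure D3:**
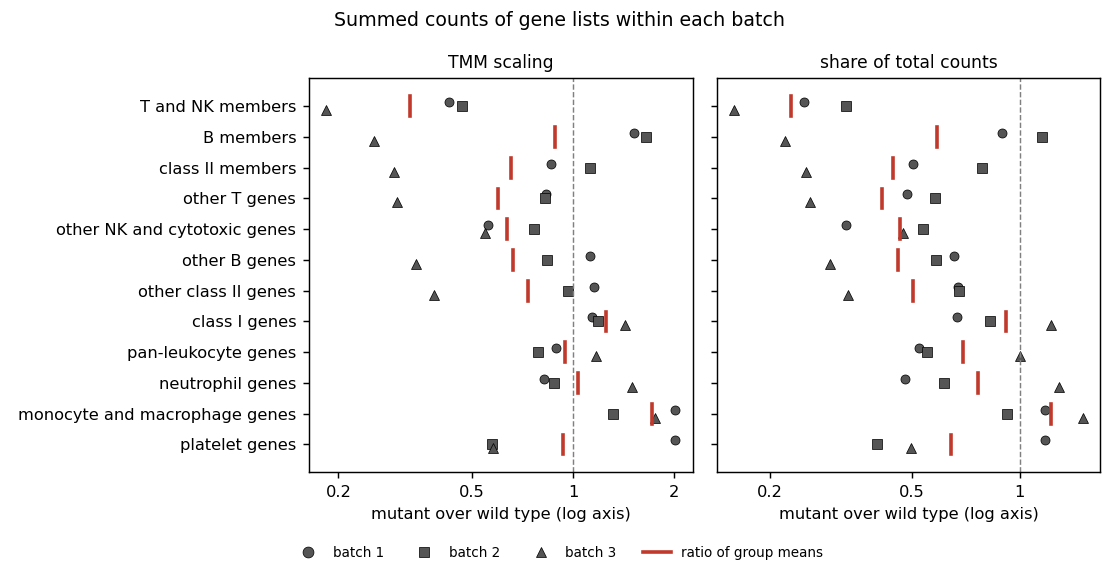
Ratio of summed counts, mutant over wild type (log axes), for the 3 groups of the 10 genes and for 9 lists of other genes, within batch 1 (circles), batch 2 (squares) and batch 3 (triangles), with red bars for the ratio of group means; TMM scaling is on the left and the share of total counts on the right. In batch 3 the T and NK, B and class II sums had ratios of 0.184, 0.256 and 0.293 with TMM, while the pan-leukocyte and neutrophil lists had 1.17 and 1.50.

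The B sum and the pan-leukocyte list were ordered differently over the libraries. In wild type the pan-leukocyte list held 85.0, 85.2 and 85.3 CPM of total counts, while the B sum held 12.1, 10.6 and 26.7. In the mutants the pan-leukocyte list held 44.4, 47.0 and 85.7, while the B sum held 10.7, 12.3 and 5.88. Mutant library 3 thus had the most pan-leukocyte counts of the mutants and the lowest sum of the 4 B genes. Its neutrophil list was also the highest of the mutants, at 176 CPM of total counts beside 84.4 and 90.4. The list of 29 further B cell genes differed less over the mutants, at 9.03, 9.25 and 8.61 CPM of total counts.

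Ratios between lists within a library remove the scaling. T and NK counts per pan-leukocyte count were 0.0163, 0.0279 and 0.0120 in mutant libraries and 0.0342, 0.0470 and 0.0757 in wild-type libraries, without overlap. The means were 0.0187 ± 0.00823 in mutant libraries and 0.0523 ± 0.0213 in wild-type libraries (SD, n = 3 each). With Ptprc, which encodes CD45, as the only denominator they were 0.0909, 0.123 and 0.0581 against 0.163, 0.238 and 0.347, again without overlap. B counts per pan-leukocyte count were 0.242, 0.261 and 0.0685 in mutant libraries and 0.142, 0.124 and 0.313 in wild-type libraries, and class II counts per pan-leukocyte count 0.150, 0.163 and 0.0637 against 0.156, 0.115 and 0.254. Both overlapped.

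T and NK counts per B count were 0.0675, 0.107 and 0.174 in mutant libraries and 0.241, 0.378 and 0.242 in wild-type libraries, without overlap. The mutant library of batch 3, which had the lowest B sum, had the highest of the mutant values. Since the T and NK genes were chosen with their low mutant values known, and met the low-count filter only in wild type, the direction of all ratios with these genes is a description and supports nothing.

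**Figure D4:**
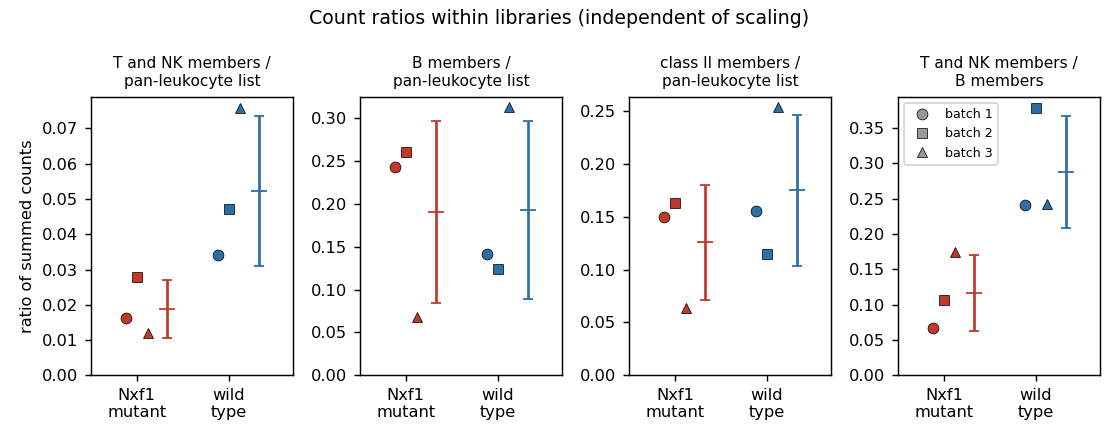
Ratio of summed counts within each library, for the 3 mutant (red) and 3 wild-type (blue) libraries, with marker shapes for the batches and bars for the mean and SD; each panel has its own linear axis from 0. T and NK counts do not overlap between genotypes against either denominator, while B and class II counts against the pan-leukocyte list do.

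Levels of different genes were compared per kilobase of gene length. In the mutants the order of mean CPM per kilobase was Igkc (10.1), Ighm (4.79), Cd74 (3.25), H2-Aa (1.79), H2-Ab1 (1.32), Cd79b (0.703), Cd79a (0.632), Gzma (0.426), Lck (0.254) and Tcf7 (0.117). Neighbours in this order overlapped over the 3 libraries, except Cd74 with H2-Aa and Lck with Tcf7. In wild type the order was Igkc (9.52), Cd74 (5.67), Ighm (5.51), H2-Aa (2.22), Gzma (1.83), H2-Ab1 (1.67), Cd79a (1.06), Cd79b (0.853), Tcf7 (0.477) and Lck (0.465), and only Ighm and H2-Aa did not overlap as neighbours. Igkc, Ighm, Cd74 and H2-Aa thus took the first 4 places in both genotypes, while Gzma ranked above H2-Ab1 in wild type. Gzma was the fifth of the 10 genes in wild-type libraries and the eighth in the mutants.

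Other genes of the same cell types, in lists that do not hold the 10, mostly had a lower mean in the mutants, and none passed the test one by one. Of 97 genes, 94 had counts, and 77 had a lower and 17 a higher mean CPM in the mutants. The share with a lower mean was not computed over all genes with counts. With no filter the median log2 fold change was −0.15 over 16396 genes. It was −0.68, −0.59, −0.76 and −0.57 in the T, NK and cytotoxic, B and class II lists. Only 11 of the 97 genes passed the low-count filter. Of these 11, 0 were called by edgeR, limma-voom or DESeq2 (which tested 61 of the 97), and 2 were lower and 0 higher at an unadjusted edgeR p under 0.05. Their median log2 fold change was −0.51, with 9 of 11 below 0, beside −0.06 and 54.9% for all genes tested. The fit with a batch term called 1 lower, and so did that with total counts.

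In the T cell list of 31 genes, 0 passed the filter and 24 had a lower mean CPM in the mutants. Its summed counts were 56, 78 and 50 in mutant libraries and 118, 130 and 209 in wild-type libraries. Ccr7, the receptor that guides naive T cells to lymph nodes, had 5, 8 and 0 counts in mutant libraries and 15, 11 and 8 in wild-type libraries. Trbc2, a T cell receptor beta constant region, had 2, 1 and 5 against 5, 6 and 19. Thy1, a surface antigen of mouse T cells, had 4, 10 and 5 against 7, 9 and 11, and Ms4a4b, a membrane protein of T cells, 2, 6 and 5 against 11, 8 and 10. After scaling all 4 overlapped between the groups.

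The list of 23 NK and cytotoxic genes summed to 23, 64 and 62 counts in mutant libraries and 72, 115 and 142 in wild-type libraries. Ncr1, which encodes the NK cell receptor NKp46, had 2, 6 and 2 counts in mutant libraries and 9, 21 and 15 in wild-type libraries, and Il2rb, the beta chain of the IL-2 and IL-15 receptors, 2, 10 and 5 against 8, 16 and 25. The chemokine Ccl5, made by cytotoxic and memory T cells, had 3, 11 and 19 counts against 20, 19 and 27, with a log2 fold change of −0.51 (SE 0.40, edgeR adjusted p = 0.571). Cd244a, the receptor 2B4 of NK cells, had 9, 9 and 11 against 10, 10 and 13 and a log2 fold change of 0.33 (SE 0.38, edgeR adjusted p = 0.747), which turned to −0.15 with total counts. The NK cell genes Klra8 and Klrc2 had 0 counts in every library. Whether BALB/c mice carry both genes was not checked, so nothing is read from these counts.

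Of 29 further B cell genes, 5 were tested, all with a log2 fold change below 0 (4 of 5 with RLE scaling) and a median of −0.67. Cd22, an inhibitory receptor of B cells, had 10, 8 and 7 counts in mutant libraries and 15, 15 and 41 in wild-type libraries (log2 −0.95, SE 0.44, edgeR adjusted p = 0.254). Ighd, the IgD heavy chain of mature naive B cells, had 7, 10 and 4 against 12, 15 and 22 (log2 −0.67, edgeR adjusted p = 0.481), and Cd37, a tetraspanin, 19, 19 and 32 against 38, 38 and 40 (log2 −0.23, edgeR adjusted p = 0.756). In batch 1 the log2 ratio of Cd22 was 0.22, and in batch 3 −2.23.

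Summed and tested over libraries, these lists had log2 ratios of −0.74 for T cell genes, −0.66 for NK and cytotoxic genes and −0.60 for B cell genes. Exact two-sided permutation tests gave p = 0.2, 0.3 and 0.3 (n = 3 each), or 0.3 each after Benjamini-Hochberg adjustment over the 3 tests, and 0.1 is the smallest p this design can give. With total counts the log2 ratios were −1.28, −1.11 and −1.13 and the groups did not overlap (exact permutation p = 0.1 each, n = 3 each). On that scale 31.5% of all genes tested had every mutant value below every wild-type value, and their median log2 fold change was −0.53. The erythroid list did not overlap either, at a ratio of 0.907. With TMM the ratios within batches 1, 2 and 3 were 0.828, 0.827 and 0.300 for the T cell list. They were 0.557, 0.767 and 0.547 for the NK and cytotoxic list, and 1.12, 0.834 and 0.342 for the B cell list.

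Of 14 further class II genes, 4 were tested and 0 called. H2-Eb1, the I-E beta chain whose promoter is shown above, had 32, 8 and 14 counts in mutant libraries and 39, 22 and 72 in wild-type libraries (log2 −0.71, SE 0.56, edgeR adjusted p = 0.600). H2-Ea, the I-E alpha chain, had 18, 15 and 14 against 25, 23 and 59 (log2 −0.63, SE 0.37, edgeR adjusted p = 0.406). Both were highest in wild-type library 3, as were H2-Aa and H2-Ab1. Of the lysosomal genes of the pathway, Ifi30, a thiol reductase, had a log2 fold change of 0.11 (−0.37 with total counts) and Ctss, the protease cathepsin S that trims the invariant chain, of −0.36 (edgeR adjusted p = 0.910 and 0.724).

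Class I molecules present peptides on most nucleated cells, and their 7 genes together were highest in mutant library 3, at 46.1 CPM beside 33.3 and 38.9 in the other mutants and 29.3, 32.9 and 32.4 in wild-type libraries. B2m, H2-K1 and H2-D1 had log2 fold changes of 0.52, 0.39 and 0.20, none of them called (edgeR adjusted p = 0.136, 0.290 and 0.694), and with total counts of 0.07, −0.07 and −0.25. B2m had 143, 184 and 278 counts in mutant libraries and 172, 204 and 213 in wild-type libraries. Ptprc had 121, 162 and 258 counts in mutant libraries and 276, 248 and 294 in wild-type libraries, or 13.8 ± 2.79 CPM and 14.9 ± 0.372 CPM (SD, n = 3 each), with a log2 fold change of −0.11 (SE 0.19, edgeR adjusted p = 0.840). Of 12 pan-leukocyte genes tested, 0 were called (edgeR; 0 at an unadjusted p under 0.05, and 0 with DESeq2 or limma-voom), with a median log2 fold change of −0.14 and 8 of 12 below 0. With total counts the median was −0.59 and 12 of 12 were below 0.

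Markers of the other antigen-presenting cells were few. Of 7 dendritic cell genes, Flt3 and Cd209a had 0 counts in every library, and Zbtb46, Xcr1, Clec9a and Siglech had 0 in all mutants and at most 2 in a wild-type library. The list summed to 12, 9 and 24 counts in mutant libraries and 34, 29 and 23 in wild-type libraries, most of them Itgax, which other myeloid cells share. Of 15 monocyte and macrophage genes, 3 were tested and 1 was higher, Mpeg1 (log2 0.84, SE 0.25, edgeR adjusted p = 0.0489), and Lyz2 had a log2 fold change of 0.91 (edgeR adjusted p = 0.0711, and 0.00138 when batch was a term). That list summed to 33.7, 18.2 and 28.9 CPM in mutant libraries and 16.8, 13.9 and 16.5 in wild-type libraries, without overlap and opposite in direction to the class II sum, while with total counts the groups overlapped and Mpeg1 was not called (edgeR adjusted p = 0.380). No gene of this list was called with limma-voom, with a mean count of at least 10, with DESeq2 and batch as a term, or without mutant 3, wild type 2, wild type 3 or batch 3. The macrophage genes C1qb and Marco had 0 counts in every library. The part of these cells in the class II values was not tested.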

How the data were processed

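RNA of purified erythrocytes was measured in 6 libraries, 3 Nxf1 mutant and 3 wild type, grouped by the labels' genotype. The authors deposited raw counts per Entrez gene, per the file headers, made with CASAVA 1.8.2, Subread and featureCounts on mm10, per the submitters' processing notes. Versions of Subread and featureCounts, the annotation, the strand setting and the handling of multi-mapped reads are not given in the sources used here, so immunoglobulin, H2 and overlapping or antisense genes are uncertain. Polyadenylated RNA was sequenced, per the labels.

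Counts were fitted with edgeR 4.0.16 (R 4.3.3; quasi-likelihood, robust, TMM, filterByExpr by group with a minimum count of 10), with genotype alone in the model. P-values were adjusted by Benjamini-Hochberg over the 2823 genes tested. Each standard error is the log2 fold change over √F. Symbols came from a RefSeq table, which matched 25275 of 27179 genes. Ratios of counts within a batch carry exact binomial intervals. Intervals cover counting error only, since reads had no molecular identifiers. Alternatives were batch as a term, RLE scaling, total counts, globin removal, other filters, DESeq2 1.42.0, limma-voom 3.58.1, and leaving out each library or batch. Fits without hepatocyte and pancreas genes, and DESeq2 on edgeR's genes, were chosen after seeing the data.

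The members and all gene lists were chosen with earlier results of these data known. Beside the 10, the text names the 4 genes with most counts in each further T, NK, B and class II list, 3 in the pan-leukocyte and class I lists, called genes, and single genes given for their counts, which were picked after their values were seen. A gene that this rule took is not reported here. The labels pair the libraries by batch. Same-batch deviations from the group means correlated at −0.116, −0.0855 and −0.0439 across genes, and different-batch deviations at −0.0187 to 0.0879. Libraries of a batch were thus no more alike than libraries of different batches. The fits were tested on simulated counts. These were drawn without the TMM factors of the libraries and without a genotype effect that differs by batch, so they do not cover either.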

Additional observations from a re-analysis of the deposited data

How the results depend on the processing

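The number of genes lower in the mutants was 30 with edgeR and TMM, 60 with batch as a term (replicate block), 19 with RLE scaling, 245 with total counts, 82 with no filter, 15 with a mean count of at least 10, 7 with DESeq2, 2 with DESeq2 and the block, 11 with DESeq2 on edgeR's genes, 19 without batch 2, 3 without batch 3 and 8 to 77 without 1 library. The number higher was 169, and 382 with no filter and 271 with DESeq2. Of the 10 genes 2 were lower, and 0 with DESeq2, with DESeq2 and the block, or without batch 3, 1 with DESeq2 on edgeR's genes, and 0 to 3 without 1 library. With the block, Cd74 was added and no other call of the 10 changed. Of the further lymphocyte and class II genes 0 were lower, and 1 with the block, with total counts or without batch 1, and 0 to 2 without 1 library. Genes called by batch were 11, and 107 with no filter and 61 with a mean count of at least 10. Without batch 3 the log2 fold changes of Ighm, Cd79b, H2-Aa and H2-Ab1 turned to 0.87, 0.48, 0.57 and 0.49, and without 1 library they ran from −0.51 to 0.40, −0.57 to 0.17, −0.55 to 0.12 and −0.64 to 0.057. Igkc turned to −0.50 with total counts, −0.078 with limma-voom, −0.18 without batch 1 and −0.30 without batch 2, and ran from −0.15 to 0.53 without 1 library. The cause of these changes was not tested, beyond the fewer libraries. Gzma, Tcf7, Lck, Cd79a and Cd74 were below 0 under all 20 alternatives. Counts of 3 to 10 per mutant library limit Gzma, Tcf7 and Lck.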
